A study of Homo sapiens with 12 samples.

Results

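The genes described here are 10 genes known from the stem and progenitor cells of the intestinal crypt: ASCL2, LGR5, SMOC2, RGMB, SOX9, SOX4, CD44, ETS2, CEMIP, and TNFRSF19. They were chosen by name, with earlier results of these data known. Every array probe whose RefSeq accession maps to one of them was taken. This gave 18 of the 41000 non-control probes and 10 of the 17240 genes with a symbol. The accession of 1 probe, the RGMB probe A_24_P363100, was not matched in the RefSeq gene table. This probe was named through the gene list of the study. The paper's gene lists hold transcripts that responded to β-catenin depletion or Wnt3A. The probe may thus have entered through its response in these data. The arrays carry 3 probes for CEMIP and ETS2, 2 for ASCL2, RGMB, SOX4, and TNFRSF19, and 1 for LGR5, SMOC2, SOX9, and CD44, and each probe is described apart.

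RNA was measured on 12 dual-color Agilent whole human genome arrays. Ls174T cells, which derive from a human colorectal cancer and signal through the Wnt pathway without added ligand, received 15 nM of si-control, si-b-catenin (against β-catenin), si-MLLT10 (against MLLT10/AF10), si-BRG1, or si-P300 for 72 h. HEK293T cells, a human embryonic kidney line in which the pathway can be switched on from outside, received the same dose of si-control for 72 h and then control medium (CM) or Wnt3A for 9 h, or si-MLLT10, si-DOT1L, si-BRG1, or si-P300 with 9 h of Wnt3A. Depleted and si-control RNA of the β-catenin experiment were hybridized together on a pair of arrays with the dyes exchanged, whereas each of the other 10 RNAs was hybridized to 1 array against human reference RNA. Each condition is 1 RNA sample from cells of 1 line, so that there are no biological replicates and no test between conditions was possible. The error printed after ± is the one that the scanner program attaches to a ratio, combined over the arrays compared, and it leaves out the spread between cultures.

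Crypt stem cells sit at the base of the intestinal crypt and divide under Wnt signals, which stabilize β-catenin so that it can act with TCF factors on target genes. MLLT10/AF10 and DOT1L belong to a complex that methylates histone H3 on transcribed genes, BRG1 is the ATPase of a chromatin remodeling complex, and p300 is a histone acetyltransferase. The 10 genes encode transcription factors (ASCL2, SOX9, SOX4, ETS2), cell surface receptors (LGR5, TNFRSF19, CD44), and secreted or membrane-bound factors (SMOC2, RGMB, CEMIP).

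The promoters were searched for the letters that TCF factors are known to bind, since β-catenin acts through these factors and several members moved together when it was depleted. RefSeq promoter windows of 300 bases (250 before and 50 after a start site, GRCh38.p14) were given for 7 of the 10 genes, 11 windows in all. Of these, 1 held any of the 4 forms searched on either strand, which were CTTTGAA and CTTTGAT as well as CTTTGTA and also CTTTGTT (9.091%), and 13.75% of all 35116 windows did. The match lay in RGMB, where CTTTGTA starts 4 bases before the start site and runs across it. The stretches printed are from the 3 genes that encode secreted or membrane-bound factors, all on the plus strand, with the match in capitals. That of RGMB (chr5:98768535-98768634) ends with the match, and those of SMOC2 (chr6:168441084-168441183) and CEMIP (chr15:80779270-80779369) end at the last base before the start site and hold no match.
RGMB: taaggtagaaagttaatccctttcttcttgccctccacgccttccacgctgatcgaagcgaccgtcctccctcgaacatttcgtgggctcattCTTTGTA
SMOC2: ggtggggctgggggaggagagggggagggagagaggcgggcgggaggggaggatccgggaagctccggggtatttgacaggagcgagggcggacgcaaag
CEMIP: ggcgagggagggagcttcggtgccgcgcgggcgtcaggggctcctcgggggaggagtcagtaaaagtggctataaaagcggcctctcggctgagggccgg

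The siRNA target fell in each depletion in at least 1 probe, by a log2 change of −2.71 ± 0.23 and −2.49 ± 0.22 for the CTNNB1 probes (the gene of β-catenin), of −1.42 ± 0.33 (Ls174T) and −1.76 ± 0.32 (HEK293T) for MLLT10, of −2.24 to −2.53 (Ls174T) and −3.95 to −4.00 (HEK293T) for the 3 probes of SMARCA4 (the gene of BRG1), and of −1.34 ± 0.40 (Ls174T, A_24_P7887) and −2.35 ± 0.35 (HEK293T, A_23_P40693) for EP300 (the gene of p300). In p300-depleted Ls174T cells A_23_P40693 was dim and changed by −0.60 ± 0.48, short of 2-fold, and in HEK293T cells A_24_P7887 changed by −2.85 ± 0.43 and was dim. The signal of A_24_P7887 was also low in Ls174T cells, at 1.60 times the background after p300 depletion and 1.93 times in si-control cells. Of the 3 DOT1L probes, 2 fell by 1.41 and 1.97 and the remaining one changed by 0.17 ± 0.30 in DOT1L-depleted HEK293T cells. Of 8 markers of intestinal epithelium, 8 were above background on all Ls174T reference arrays and 4 on all HEK293T arrays, and CDH17 was above background on no HEK293T array. Among embryonic kidney line markers, 5 of 5 genes with a probe were above background on all HEK293T arrays and 2 on all Ls174T reference arrays. PAX8 probe A_23_P210001 was higher in Ls174T cells by 3.39 in mean log2 ratio, whereas the VIM, CDH2, NEFL, and NEFM probes were lower. On all Ls174T reference and all HEK293T arrays, 5 and 6 of 9 enterocyte genes were above background. The counts were 6 and 4 of 7 for goblet, 3 and 4 of 6 for enteroendocrine, and 2 and 0 of 4 for Paneth cell genes. The pair was the dimmest set of arrays, with a median sample signal of 1.66 to 1.73 times the local background against 2.27 to 3.47 times on the others. The arrays came on 5 slides, and of the 9 comparisons with a matched control all but si-MLLT10 in Ls174T cells and the β-catenin pair crossed slides, so that slide and condition cannot be told apart there.

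A probe is called well-measured in a comparison where the signal of either channel exceeded 2 times the local background on every array compared. A change is called past the threshold at 2-fold in Ls174T cells (1.0 on the log2 scale) and at 1.5-fold in HEK293T cells (0.585). A probe is called dim where the scanner program did not mark its sample channel as well above background.

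Crypt stem and progenitor genes were lower in Ls174T cells after depletion of β-catenin. Of the 12 well-measured member probes, 9 fell past 2-fold and 0 rose, while among all 16499 well-measured probes 1.17% fell and 4.48% rose past 2-fold. These 9 probes belong to 5 of the 8 genes with a well-measured probe, namely ASCL2, SMOC2, RGMB, ETS2, and CEMIP. The RGMB probe A_24_P363100, which was named through the gene list of the study, is among them. The median change over the 12 probes was −2.02 on the log2 scale, and over all probes it was −0.02. The members, and the lists set beside them below, were chosen with earlier results of these data known. The paper names RGMB and SMOC2 among the genes lower after β-catenin depletion, and also after depletion of MLLT10/AF10, BRG1, and p300. The counts and medians therefore describe the lists and are no test against the shares over all probes. The change of each of the 12 probes was larger than its program error. As RNA was taken from whole cultures, fewer cells of a type and less RNA per cell cannot be told apart here or in any result that follows.

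ASCL2, a transcription factor that controls the identity of crypt stem cells, had the largest drop among the members. Probe A_32_P171061 read −2.83 on the first array of the pair and −2.79 on the dye swap, and its mean of −2.81 ± 0.23 left 0.142 of the control level and ranked 7 of 16499 probes from the lowest. The second ASCL2 probe, A_23_P105088, was dim in the depleted RNA on both arrays, at 1.37 and 1.32 times the background, and gives a level at least 3.54-fold lower, a bound set by the lowest signal marked well above background on each array after loess and Aquantile normalization of the channels.

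ETS2, a transcription factor of the ETS family that acts downstream of growth factor signaling, fell in all 3 of its probes. Probe A_23_P257924 read −1.96 and −1.57 (mean −1.77 ± 0.18), probe A_24_P314179 read −2.42 and −2.20 (mean −2.31 ± 0.21), and probe A_24_P382661 read −1.95 and −2.09 (mean −2.02 ± 0.20). The probes thus left between 0.202 and 0.294 of the control level.

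SOX9, a transcription factor of crypt base cells that is a known Wnt target, read −0.89 on both arrays (mean −0.89 ± 0.16) and stayed short of 2-fold. SOX4, a related factor of progenitor cells, lay at the threshold. Its probe A_23_P82169 read −1.01 and −0.98, and the mean of −0.997 ± 0.15 fell just short of 2-fold. Its probe A_24_P911676 read −1.17 and −0.92 and was not well-measured on the dye swap, where its signal was 1.89 times the background against 4.29 times on the first array. A_23_P82169 also stood lower over its local background on the dye swap, at 9.66 times against 198 times on the first array. These ratios are of different dyes, and whether signal or background differed was not tested.

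Among the receptors, CD44, the receptor for hyaluronan and a known Wnt target, was the only one with a well-measured probe and changed by less than 2-fold. Its probe, the only member probe printed in 10 spots per array, read −0.72 and −0.48, with an SD between the spots of 0.02 and 0.04. LGR5, the receptor for R-spondins and the best known marker of crypt stem cells, could not be judged from the pair. Its probe A_23_P98974 read −1.31 ± 0.49 on the first array and 0.27 ± 0.91 on the dye swap, and its depleted channel was dim on both, at 1.31 and 1.73 times the background. Both probes of TNFRSF19, a receptor of the TNF family, were dim in both channels of both arrays, and the scanner program had set their ratios to 0.

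The 5 well-measured probes of the secreted and membrane-bound factors all fell past 2-fold. SMOC2, a secreted calcium-binding protein found around crypt stem cells, read −2.12 and −1.75 (mean −1.94 ± 0.19). RGMB, a membrane-anchored co-receptor for BMP ligands, read −1.79 and −2.27 with A_23_P58796 (mean −2.03 ± 0.20) and −2.36 and −2.47 with A_24_P363100 (mean −2.42 ± 0.22). CEMIP, a protein involved in the breakdown of hyaluronan, read −2.50 and −2.64 with A_32_P161855 (mean −2.57 ± 0.22). Its probe A_23_P324754 read −2.44 and −2.81, its depleted channel was well above background on 1 of the 2 arrays, and its mean of −2.62 ± 0.17 was −1.46 under normexp and loess, whereas A_24_P84396 was dim in both channels. The plot of the pair shows both arrays side by side, and without the dye swap 13 of 15 well-measured probes fell past 2-fold, without the first array 9 of 12. The larger count takes in both SOX4 probes, at −1.01 and −1.17, and probes dim in the depleted RNA, ASCL2 A_23_P105088 (−2.73) among them.

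**Figure D1:**
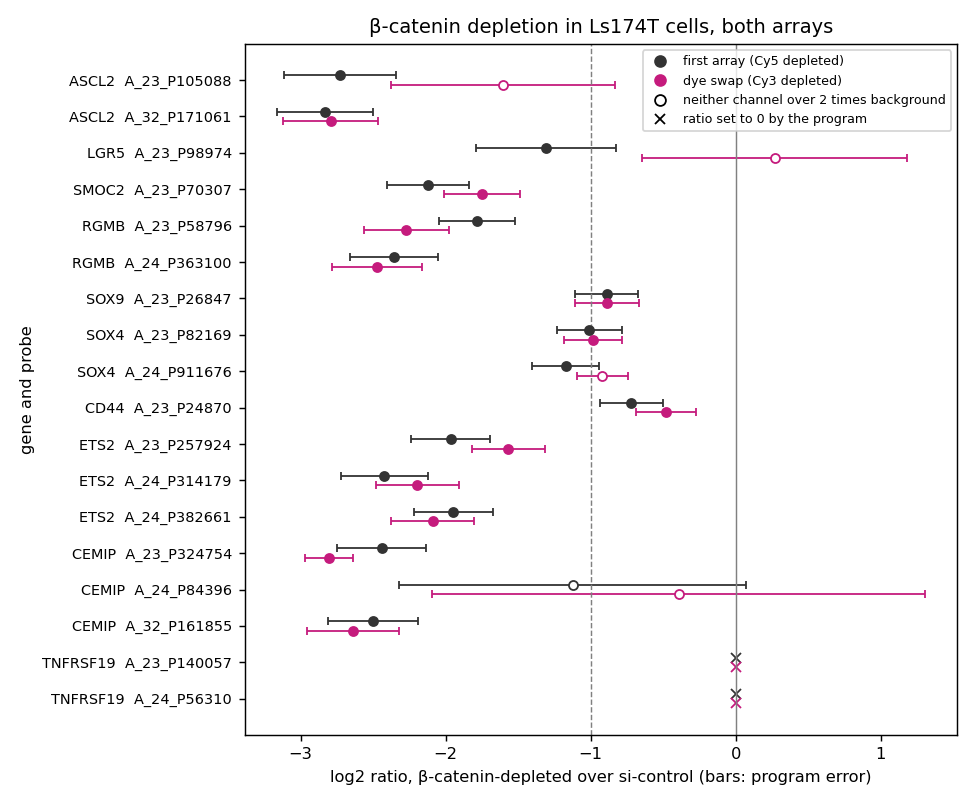
log2 ratio of β-catenin-depleted to si-control RNA of each member probe on the first array (black) and on the dye swap (magenta), with the program error as bars, open symbols where neither channel exceeded 2 times the background and crosses where the program set the ratio to 0. The ASCL2 probe A_32_P171061 (−2.83 and −2.79) lies farthest to the left on the first array, and the LGR5 readings of −1.31 and 0.27 lie on either side of 0.

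Markers of differentiated intestinal cells moved the other way on the same arrays. Of 9 well-measured goblet cell probes, 8 rose past 2-fold (6 of 6 genes, ZG16 by 2.88 and SPDEF by 2.21 among them), and the summed signal of the goblet cell list was higher by 1.75 and 1.92 on the log2 scale. Of the enterocyte list, 2 of 2 well-measured probes rose, FABP1 by 5.07 ± 0.37 and CA1 by 3.28 ± 0.19, and the summed signal was higher by 4.80 and 4.63. Of 8 well-measured probes of the intestinal epithelium list, 3 rose (KRT20, LGALS4, and CDH17) and 0 fell. DEFA6, the only well-measured Paneth cell marker, fell by 2.93 on the log2 scale, and 0 of 2 enteroendocrine probes passed the threshold. The part of these shifts in the drop of the crypt genes was not tested.

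A list of 30 other crypt and Wnt target genes was set beside the members. Of its 34 well-measured probes, 20 fell past 2-fold and 0 rose, and 15 of 23 genes had a probe that fell. The median over this list was −1.14 against −2.02 over the members. By the rule for naming genes of this list, the 6 largest changes among probes bright in both channels of both arrays were those of PTPRO, a membrane phosphatase (−3.12 ± 0.26), SLC12A2, an ion cotransporter (−2.17 ± 0.20), EPHB3, a receptor that positions cells in the crypt (−2.14 ± 0.20), AXIN2, an inhibitor in the Wnt pathway (−1.97 ± 0.19), MEX3A, an RNA-binding protein (−1.71 ± 0.19), and LRIG1, an inhibitor of growth factor receptors (−1.52 ± 0.17).

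Depletion of MLLT10/AF10, BRG1, and p300 moved few crypt stem and progenitor probes past 2-fold in Ls174T cells. These 3 comparisons share the si-control array, so their values are not independent of each other. After MLLT10/AF10 depletion 1 of 16 well-measured probes fell and 0 rose (0.996% and 0.756% of all probes), after BRG1 depletion 0 fell and 0 rose (1.46% and 3.75%), and after p300 depletion 3 fell and 0 rose (1.67% and 4.09%). The median change of the members was −0.27, 0.16, and −0.24, and over all probes it was −0.01, −0.01, and 0.02. Of the 16 member probes, 12, 5, and 12 lay below 0. In the same order, 13, 12, and 11 of them differed from the control by less than their program error. These counts and medians include TNFRSF19 A_24_P56310, which was dim on both sides of each comparison and passed the filter through the reference channel. The 52 probes of the other crypt and Wnt genes gave 1 lower and 0 higher of 49 well-measured after MLLT10/AF10 depletion, 0 and 3 of 47 after BRG1 depletion, and 2 and 2 of 48 after p300 depletion. Beside the 3 members that fell after p300 depletion, 2 of 9 goblet cell probes and 2 of 3 Paneth cell probes fell. Paneth cell probes also fell after BRG1 depletion, 3 of 3, where 0 members fell. Of the goblet cell probes 0 of 9 fell past 2-fold there, but all 9 lay below 0. With MLLT10/AF10 depleted, 0 of 9 goblet and 0 of 3 Paneth cell probes fell. The goblet cell list summed to 3.34 over the reference after p300 depletion, against 3.80 in si-control cells. Its sum was 3.58 after BRG1 and 3.99 after MLLT10/AF10 depletion. The part of these shifts in the changes of the members was not tested.

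**Figure D2:**
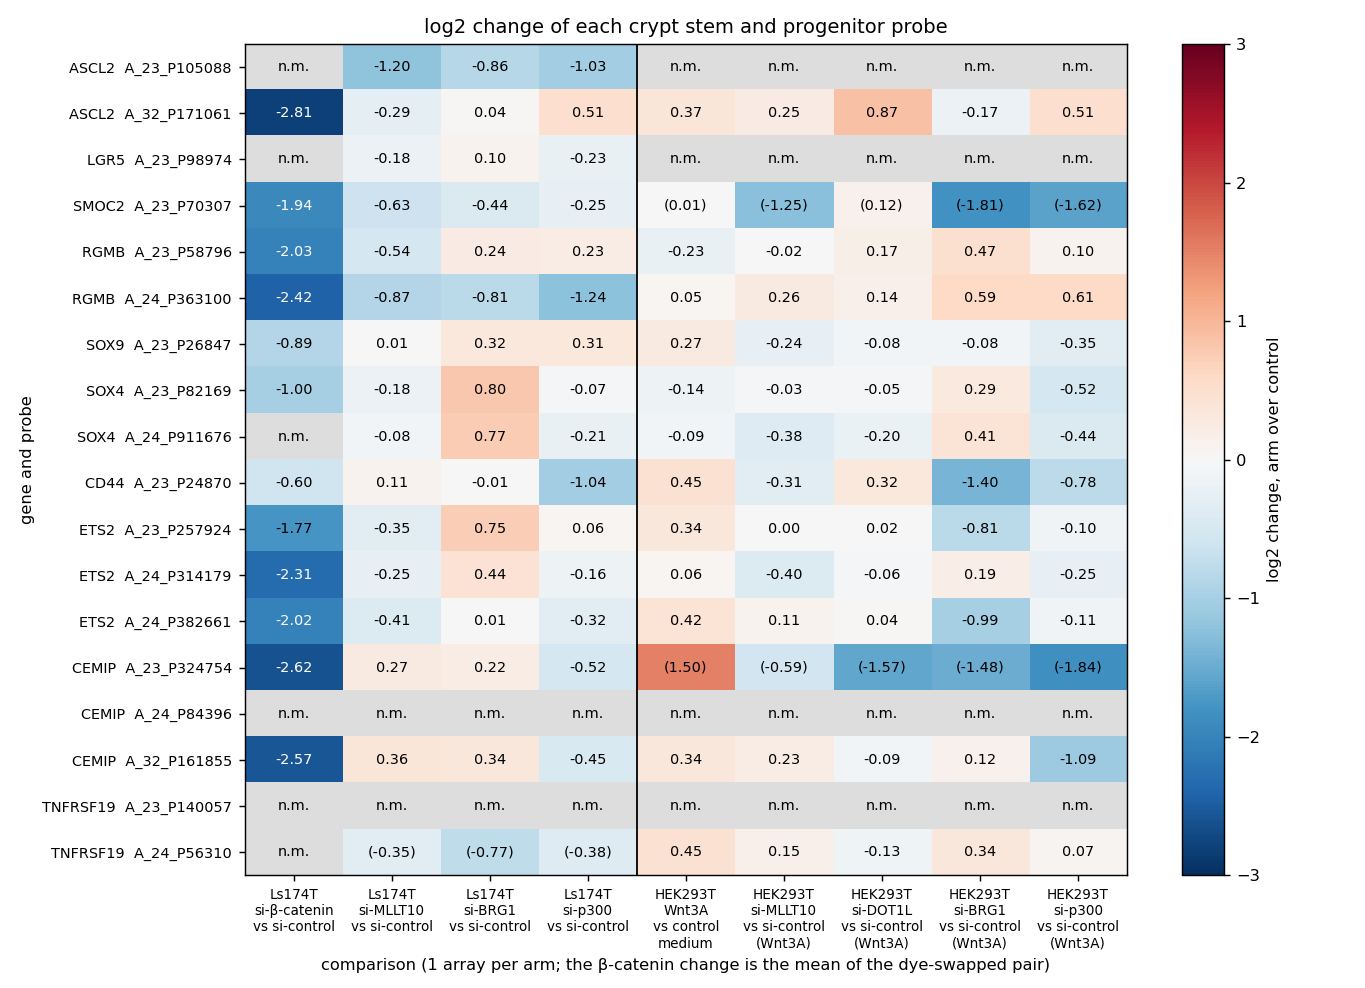
log2 change of each member probe (rows) in the 9 comparisons (columns), blue for lower and red for higher, grey with n.m. where a probe was not well-measured and values in parentheses where the probe was dim on at least 1 side of the comparison. The column of β-catenin depletion holds 9 changes past 2-fold, against 1, 0, and 3 in the other Ls174T columns.

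The ASCL2 probes did not move together after these depletions. A_23_P105088 read 6.37 over the reference in si-control cells, 5.17 in MLLT10/AF10-depleted, 5.51 in BRG1-depleted, and 5.33 in p300-depleted cells, which gives −1.20 ± 0.86, −0.86 ± 0.87, and −1.03 ± 0.86. Its signal was only 2.94 to 12.2 times the background and its reference channel was dim on the si-control and si-MLLT10 arrays (1.18 and 1.15 times). A_32_P171061, at 450.5 to 2454 times the background, read 5.32, 5.03, 5.36, and 5.83 in the same order, which gives −0.29 ± 0.75, 0.04 ± 0.77, and 0.51 ± 0.81. The drop past 2-fold after MLLT10/AF10 depletion and that after p300 depletion thus came from the dimmer probe alone. The latter turned to 0.998 under normexp and loess normalization and to 1.53 in the sample channel alone, and the BRG1 change of this probe turned to 0.51 and 1.03. In the sample channel alone A_32_P171061 changed by 0.93 after BRG1 and by 1.54 after p300 depletion.

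LGR5 was low but well above background on the 4 Ls174T reference arrays, at 3 to 5.97 times the background. It read 2.70 in si-control, 2.53 in MLLT10/AF10-depleted, 2.81 in BRG1-depleted, and 2.47 in p300-depleted cells. Its changes of −0.18 ± 0.46, 0.10 ± 0.47, and −0.23 ± 0.46 were smaller than their error, and the last was −0.86 in the sample channel alone. By RT-qPCR at a later time after transfection, the paper reports LGR5 and ASCL2 lower after β-catenin and after MLLT10/AF10 depletion. After BRG1 and p300 depletion it reports most of its tested targets lower, but not ASCL2.

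CD44 fell after p300 depletion. It read −1.61 in si-control, −1.496 in MLLT10/AF10-depleted, −1.62 in BRG1-depleted, and −2.64 in p300-depleted cells, so that the p300 array lay apart from the other 3. Its change was −1.04 ± 0.41 against si-control, and on their shared slide BRG1-depleted cells were higher than p300-depleted cells by 1.03 ± 0.41. The SD between the 10 spots was 0.02 to 0.04 on these 4 arrays.

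The RGMB probes disagreed after p300 depletion. A_24_P363100 read 2.85 in si-control, 1.98 in MLLT10/AF10-depleted, 2.04 in BRG1-depleted, and 1.61 in p300-depleted cells, which gives −0.87 ± 0.43, −0.81 ± 0.43, and −1.24 ± 0.42. The si-control array was the highest of the 4. A_23_P58796 read 2.09, 1.55, 2.33, and 2.32, and its changes were −0.54 ± 0.38, 0.24 ± 0.41, and 0.23 ± 0.41. In the sample channel alone the p300 change of A_24_P363100 was −0.30 and its BRG1 change turned to 0.26. The probes target different RefSeq accessions (NM_173670 and NM_001012761), and both lay below si-control after MLLT10/AF10 depletion, the only one of these depletions measured on the same slide as si-control.

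SOX4 was higher after BRG1 depletion. A_23_P82169 read −0.40 in si-control, −0.58 in MLLT10/AF10-depleted, 0.40 in BRG1-depleted, and −0.47 in p300-depleted cells, and A_24_P911676 read −0.27, −0.34, 0.50, and −0.48. In both probes the BRG1 array lay above the other 3, by 0.80 ± 0.29 and 0.77 ± 0.29 against si-control, short of 2-fold. On the shared slide the differences to p300-depleted cells were 0.87 ± 0.29 and 0.98 ± 0.30.

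The remaining members stayed within 2-fold. ETS2 rose by 0.75 ± 0.40 after BRG1 depletion in A_23_P257924, and the changes of its other probes there were 0.44 ± 0.47 and 0.01 ± 0.46. SMOC2, which the paper lists with RGMB as lower after each of these depletions, read 6.33 to 6.96 on the 4 arrays. Its changes of −0.25 to −0.63 lay within their errors of 0.95 to 0.98. SOX9 changed by 0.01 ± 0.42, 0.32 ± 0.44, and 0.31 ± 0.44. The 2 brighter CEMIP probes changed by 0.27 and 0.36 after MLLT10/AF10 depletion, by 0.22 and 0.34 after BRG1 depletion, and by −0.52 ± 0.39 and −0.45 ± 0.40 after p300 depletion. On the shared slide CEMIP was higher after BRG1 than after p300 depletion by 0.74 ± 0.40 and 0.79 ± 0.41. TNFRSF19 was dim on every Ls174T array, so no fold is given.

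Most crypt stem and progenitor genes were far higher in Ls174T than in HEK293T cells. The log2 ratios to reference RNA did not overlap between the 4 Ls174T and the 6 HEK293T reference arrays for 15 of the 18 probes, 14 of them higher and 1 lower in Ls174T cells. Of the 14, 5 were dim on every HEK293T array (ASCL2 A_23_P105088, LGR5, SMOC2, and 2 of the 3 CEMIP probes). Over all 40886 probes with a value on these arrays, 20.0% were higher and 22.3% lower in Ls174T cells without overlap. The arrays of a line hold different treatments, so that their range covers treatments as well as error.

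ASCL2 probe A_32_P171061 lay between 5.03 and 5.83 in Ls174T and between −3.63 and −2.38 in HEK293T cells, where its signal was 1.59 to 2.08 times the background. SMOC2 lay between 6.33 and 6.96 in Ls174T and between −4.59 and −2.66 in HEK293T cells, and LGR5 lay between 2.47 and 2.81 and between −1.30 and 0.43. Both were dim on 6 of 6 HEK293T arrays, so that their level there is only an upper limit and no fold is given.

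Of the other receptors, CD44 had a median of −1.61 in Ls174T and −7.90 in HEK293T cells, both below the reference RNA. TNFRSF19 held the only member probe that was lower in Ls174T cells without overlap. Its probe A_24_P56310 was above background on 6 of 6 HEK293T arrays, at 2.41 to 2.97 times the background, and on 0 of 4 Ls174T arrays, and was at least 4.68-fold higher in HEK293T cells. The other TNFRSF19 probe, A_23_P140057, which targets NM_018647 in place of NM_148957, was dim on all 10 arrays.

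CEMIP probe A_32_P161855 had medians of 2.45 and −4.66 in Ls174T and HEK293T cells. SOX9 had medians of 2.53 and −1.66, the RGMB probes differed by 2.23 and 2.16, and the ETS2 probes by 2.29 to 3.02. SOX4 was at like levels in both lines, with medians of −0.44 and 0.00 for A_23_P82169 and of −0.31 and 0.44 for A_24_P911676, and overlapping ranges. Among the transcription factors, ASCL2 thus differed most between the lines and SOX4 least.

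**Figure D3:**
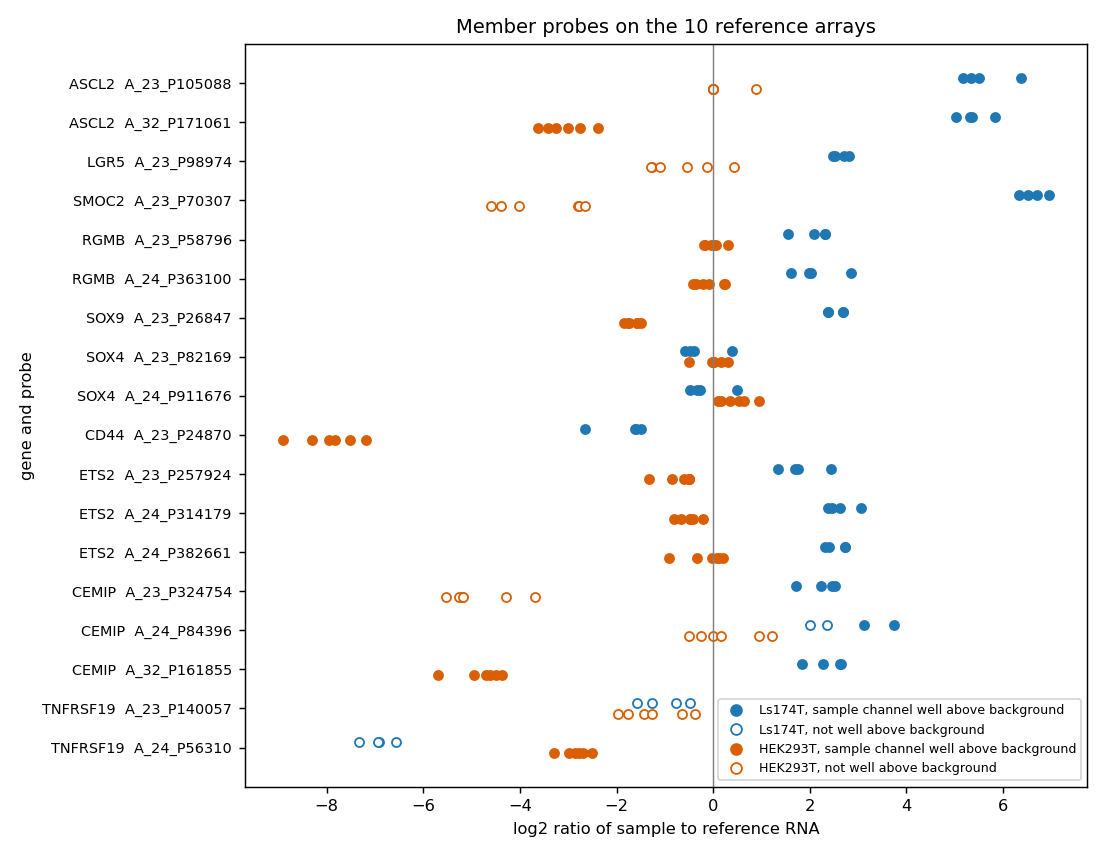
log2 ratio of sample to reference RNA of each member probe on the 4 Ls174T (blue) and 6 HEK293T (orange) reference arrays, open where the sample channel was not well above background. The lines are apart for 15 of 18 probes, while both SOX4 probes overlap and the TNFRSF19 probe A_24_P56310 is higher in HEK293T cells.

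**Figure D4:**
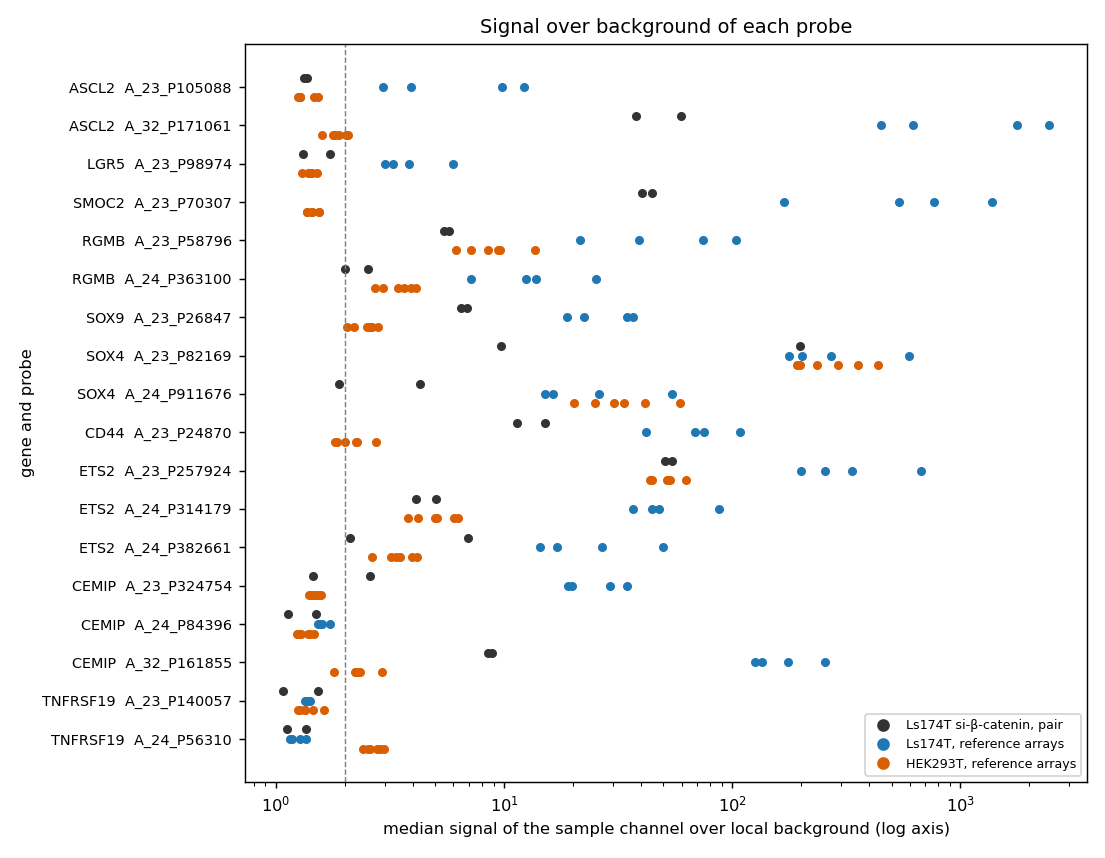
Median signal of the sample channel over the local background of each member probe on the β-catenin pair (black), the Ls174T reference arrays (blue) and the HEK293T arrays (orange), on a log axis, with a dashed line at 2 times the background. LGR5 lies at 3 to 5.97 in blue and below 2 in the other sets, and SOX4 probe A_23_P82169 lies between 178 and 596 on all reference arrays.

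Addition of Wnt3A raised 1 of the 14 well-measured member probes past 1.5-fold in HEK293T cells and lowered 0 (3.77% and 2.77% of all probes). The probe was CEMIP A_23_P324754, which read −5.20 in control medium and −3.70 after Wnt3A, but was dim on both arrays (1.52 and 1.58 times the background). The brighter CEMIP probe A_32_P161855 changed by 0.34 ± 0.70. Of the 14 probes, 11 changed by less than their program error, among them ASCL2 A_32_P171061 (0.37 ± 0.54), SOX9 (0.27 ± 0.36), and CD44 (0.45 ± 1.1). ETS2 rose by 0.34 ± 0.30 and 0.42 ± 0.29 in 2 of its probes, below the threshold, and by 0.06 ± 0.30 in A_24_P314179. LGR5 was dim in control medium and after Wnt3A (1.39 and 1.44 times the background). Of the 46 well-measured probes of the other crypt and Wnt genes, 11 rose past 1.5-fold and 0 fell, among them AXIN2 by 1.08 ± 0.30 and EPHB3 by 0.62 ± 0.32.

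The depletions in Wnt3A-treated HEK293T cells share the si-control Wnt3A array, which lies alone on its slide. After MLLT10/AF10 depletion 2 of 14 well-measured member probes fell past 1.5-fold and 0 rose (3.81% and 3.51% of all probes), and after DOT1L depletion 1 fell and 1 rose (3.53% and 2.1%). After BRG1 depletion 5 fell and 1 rose (11.7% and 10.4%), and after p300 depletion 4 fell and 1 rose (7.9% and 4.17%). The calls of SMOC2 and of CEMIP A_23_P324754 come from probes that were dim on every HEK293T array and that passed the filter through the reference channel. Without these, 0, 0, 3, and 2 probes fell in the same order, and under normexp and loess 0 fell after p300 depletion.

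Markers of intestinal cells moved on the same arrays. Of the well-measured goblet cell probes 5 of 8 rose after Wnt3A and 0 fell, while 3 of 8 fell after MLLT10/AF10, 4 of 8 after DOT1L, 4 of 7 after BRG1, and 4 of 8 after p300 depletion and 0 rose. Of the enterocyte probes 1 of 6 rose after Wnt3A, and 0 of 6, 1 of 7, 3 of 5, and 2 of 4 fell after the depletions in the same order. Enteroendocrine probes mostly moved the other way. In the same order 3 of 5, 0 of 5, 2 of 5, and 2 of 6 of them rose, and 1 fell, after p300 depletion. Their summed signal was 1.65 over the reference after MLLT10/AF10 depletion against 0.19 on the si-control Wnt3A array. The summed goblet cell signal was −2.76 over the reference on the si-control Wnt3A array, −3.51 in control medium, and −3.99 to −3.54 after the depletions, so that the Wnt3A array was the highest of the 6. Several goblet cell probes lay far below the reference in HEK293T cells, with mean log2 ratios of −6.485 for AGR2 and −4.56 to −2.48 for TFF3. MUC2 probes A_23_P256784 and A_24_P341761 lay at 0.46 and 0.45. TFF3 A_24_P289208 was above background on 0 of 6 HEK293T arrays, ZG16 on 1, and CLCA1 on none. The enterocyte probe of FABP1 lay at −7.68. A dim probe can pass the filter through the reference channel, so these counts include values near the floor. The part of these shifts in the changes of the members was not tested.

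ETS2 fell in 2 of its 3 probes after BRG1 depletion. A_23_P257924 read −0.51 in si-control, −0.50 in MLLT10/AF10-depleted, −0.49 in DOT1L-depleted, −1.32 in BRG1-depleted, and −0.61 in p300-depleted cells, with only the BRG1 array apart (−0.81 ± 0.32). A_24_P382661 read 0.09, 0.20, 0.12, −0.91, and −0.02 in the same order, again with only the BRG1 array apart (−0.99 ± 0.30). A_24_P314179 did not fall, at −0.41, −0.81, −0.47, −0.21, and −0.66, and its BRG1 change was 0.19 ± 0.29.

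CD44 read −8.91 to −7.19 over the reference on the HEK293T arrays, far below the reference RNA. It changed by −1.40 ± 1.17 after BRG1 depletion and by −0.78 ± 1.12 after p300 depletion, and the latter was within its error.

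ASCL2 A_32_P171061 read −3.63 in control medium, −3.26 in si-control, −3.01 in MLLT10/AF10-depleted, −2.38 in DOT1L-depleted, −3.43 in BRG1-depleted, and −2.75 in p300-depleted cells. The DOT1L array was the highest, by 0.87 ± 0.48 against si-control, and by 0.18 under normexp and loess. On the shared slide the Wnt3A-treated DOT1L-depleted cells were higher than si-control cells in control medium by 1.25 ± 0.50 and the Wnt3A-treated MLLT10/AF10-depleted cells by 0.62 ± 0.53, differences that take in both the siRNA and Wnt3A, at signals of 1.82 to 2.08 times the background.

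RGMB A_24_P363100 rose just past the threshold, by 0.59 ± 0.29 after BRG1 and by 0.61 ± 0.30 after p300 depletion (0.0004 and −0.54 in the sample channel alone), and A_23_P58796 changed by 0.47 ± 0.29 and 0.10 ± 0.29. CEMIP A_32_P161855 fell by 1.09 on the log2 scale (error 0.76) after p300 depletion, where its signal was 1.80 times the background. SOX9 changed by −0.08 to −0.35 over the 4 depletions, within its errors of 0.35 to 0.37. TNFRSF19 A_24_P56310 changed by −0.13 to 0.34, also within its errors.

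Of the 46 well-measured probes of the other crypt and Wnt genes, 3 fell and 3 rose after MLLT10/AF10 depletion, 2 and 3 after DOT1L depletion, 8 and 5 after BRG1 depletion, and 9 and 1 after p300 depletion. AXIN2 changed by −0.27 ± 0.29, −0.22 ± 0.29, −0.81 ± 0.29, and −0.63 ± 0.29 in the same order.

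Both SOX4 probes, CEMIP A_32_P161855, and ETS2 A_24_P314179 were higher after BRG1 than after p300 depletion by more than the program error in both lines. In HEK293T cells the SOX4 probe A_23_P82169 read 0.02 in si-control, 0.31 in BRG1-depleted, and −0.50 in p300-depleted cells. The SOX4 probe A_24_P911676 read 0.54, 0.96, and 0.10. The differences of BRG1-depleted to p300-depleted cells, both on the same slide, were 0.81 ± 0.29 and 0.85 ± 0.30, beside 0.87 ± 0.29 and 0.98 ± 0.30 in Ls174T cells on theirs. For CEMIP the differences were 1.22 ± 0.75 and 0.79 ± 0.41. The ETS2 probes did not run alike, with 0.68 ± 0.40 in Ls174T and −0.70 ± 0.32 in HEK293T cells for A_23_P257924, 0.33 ± 0.44 and −0.88 ± 0.30 for A_24_P382661, but 0.60 ± 0.47 and 0.44 ± 0.30 for A_24_P314179. Whether the lines differ in any of these was not tested, since each value rests on 2 arrays.

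**Figure D5:**
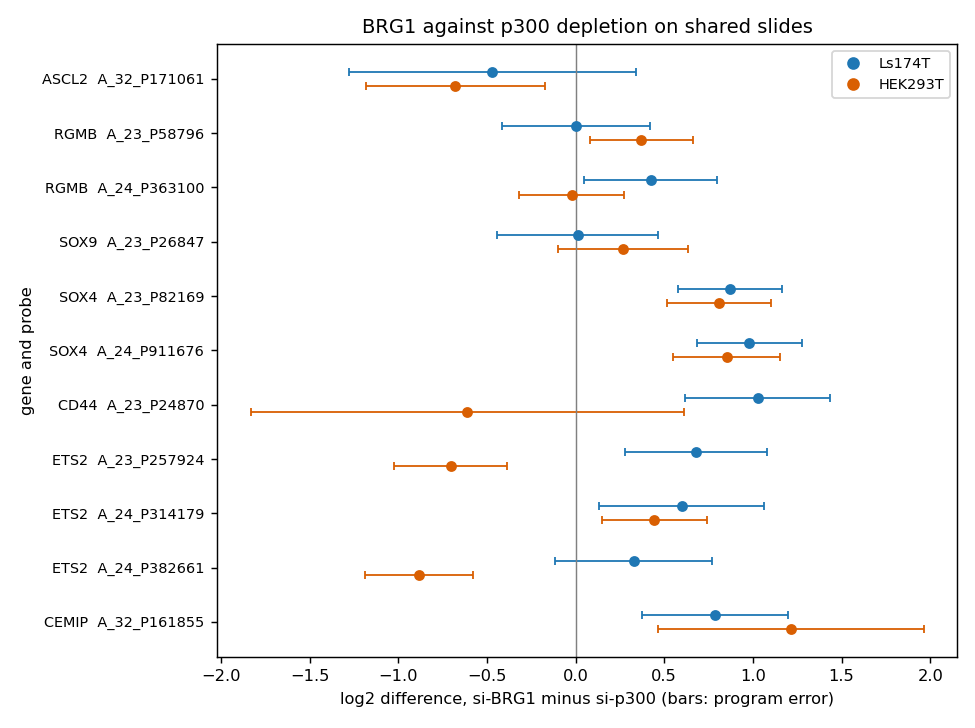
log2 difference of BRG1-depleted to p300-depleted cells on their shared slide in Ls174T (blue) and HEK293T (orange) cells, with the program error as bars, for the 11 member probes well above background in all 4 samples. Both SOX4 probes lie between 0.81 and 0.98 in both lines.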

How the data were processed

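RNA of 12 samples was measured on dual-color Agilent 4x44K arrays, read by the authors with Feature Extraction (10.5.1.1 per the file headers, 8.5.1.1 per the labels). The deposited intensities are the median and processed signal and the local background of each channel, and the deposited log10 ratios are of processed Cy5 over Cy3 signal after the program's background subtraction and dye normalization, with the program's error. Here each ratio was put on the log2 scale and given one direction, the sample (or the depleted RNA of the pair) over the other channel. A knockdown change is the difference to the si-control array and the Wnt3A change that to control medium. The pair holds the same RNA, was averaged and counts as 1 replicate. Features marked as outliers were left out, and a probe had to be well-measured in 50% of its spots on every array. Accessions were matched to symbols by a RefSeq gene table (25398 of 26278 probes). Since a program error of 1 array per condition allows no test, no p-values are given, and the number of arrays limits the precision.

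The members and lists were chosen with earlier results of these data known. All member probes are named, as are the siRNA targets and, of 30 other crypt and Wnt genes, the 6 largest changes after β-catenin depletion among bright probes. Alternatives were normexp (offset 50, on median signals, as no mean signals are in the files) with loess, the deposited value table, other filters and thresholds, centring, and the sample channel scaled to its 75th percentile. Bounds compare channel signals after loess and Aquantile. R 4.3.3, limma 3.58.1, Python 3.11.15, and pandas 2.3.3 were used. The steps were also run on simulated data with noise smaller than the median program error of every array. That run checks the arithmetic and not the certainty of a call in these data.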

Additional observations from a re-analysis of the deposited data

Results flagged for a closer look

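RGMB A_24_P363100 was past the threshold in opposite directions after p300 depletion, at −1.24 in Ls174T and 0.61 in HEK293T cells. The difference of −1.845 between the lines was not tested, as each line has 1 array per condition. The other RGMB probe, A_23_P58796, changed by 0.23 ± 0.41 and 0.10 ± 0.29.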

How the results depend on the processing

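The drop of the members after β-catenin depletion kept its direction in every alternative run, with 7 to 13 probes lower past the threshold, 0 higher, and a median that moved only under normexp and loess (−1.73). Without the first array 9 and without the dye swap 13 probes fell, with medians of −2.14 and −1.96. The 13 include probes that were dim in the depleted RNA. The other comparisons rest on few probes and their counts moved more.

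Under normexp and loess, 0 probes fell after MLLT10/AF10 depletion in either line and 0 after p300 depletion in HEK293T cells, and 0 rose after DOT1L, BRG1, or p300 depletion there. ASCL2 A_23_P105088 reversed to 1.00 after p300 depletion in Ls174T cells, and SMOC2 to 0.0812 after MLLT10/AF10 depletion in HEK293T cells. With the sample channel alone, 1 rose after BRG1 depletion and 1 fell and 2 rose after p300 depletion in Ls174T cells. In HEK293T cells 2 rose after Wnt3A, 1 fell after MLLT10/AF10 depletion, and 0 rose after BRG1 and after p300 depletion. ASCL2 A_23_P105088 reversed to 1.53 after p300 depletion in Ls174T cells, and RGMB A_24_P363100 to −0.54 after p300 depletion in HEK293T cells.

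With both channels above 2 times the background, 0 fell after MLLT10/AF10 depletion in Ls174T cells. In HEK293T cells 0 rose after Wnt3A, 0 fell after MLLT10/AF10 depletion, 0 fell and 0 rose after DOT1L depletion, 2 fell after BRG1 depletion, and 0 fell after p300 depletion, since fewer probes (9 to 11) were tested. With no filter, 1 rose after MLLT10/AF10 and 1 after BRG1 depletion in Ls174T cells. In HEK293T cells 3 rose after Wnt3A, 5 fell after MLLT10/AF10, 3 after DOT1L, 8 (and 2 rose) after BRG1, and 7 (and 2 rose) after p300 depletion. Centred arrays gave 1 lower after MLLT10/AF10 and 2 higher after p300 depletion in HEK293T cells. At 1.5-fold, 3 fell after MLLT10/AF10 and 3 fell and 3 rose after BRG1 depletion in Ls174T cells. At 2-fold, 1 fell after MLLT10/AF10, 0 rose after DOT1L, 3 fell and 0 rose after BRG1, and 0 rose after p300 depletion in HEK293T cells. Of values short of the threshold, the sample channel alone also turned RGMB A_24_P363100 to −0.52 after MLLT10/AF10 and −0.23 after DOT1L depletion in HEK293T cells, and ETS2 A_24_P314179 there to −0.29 after Wnt3A and to 0.06, 0.47, and 0.23 after MLLT10/AF10, DOT1L, and p300 depletion. Of the 130 probe values, 13 moved by more than their error and 2 reversed under normexp and loess, and 16 and 2 did so in the sample channel alone. The deposited value table held the ratios used here, to within 1.56e-05 on the log2 scale once the dye swap was turned. It could therefore move no value. Medians over spots could act on CD44 alone, since each other member probe has 1 spot. Kept outlier features and medians over spots moved no value past its error or count past 1.5 times. Apart from the filters and thresholds, the cause was not tested. No paired analysis was possible because each condition has 1 biological replicate.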
